A study of Mus musculus with 12 samples.

Results

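The homeostatic microglia genes described here were 10 genes fixed by symbol, namely Tmem119, P2ry12, Cx3cr1, Sall1, Csf1r, Trem2, Tyrobp, Siglech, Gpr34 and Aif1, and all 10 were found among the 31208 genes of the table. They were measured in the brain of C57BL/6 mice of 8 weeks in 3 groups of 4. Sham mice had no ischemia, and whether they received an injection was not stated. The vehicle group had ischemia for 6 h after 2 μL of sterile saline, and the lactate group had ischemia for 6 h after 2 μL of lactate at 100 mmol/L. Both solutions were injected into the cerebral ventricles (i.c.v.) 24 h before the middle cerebral artery was occluded by a filament (MCAO). The methods name D-lactate and male mice, while the sample labels give lactate without its form. The question of the experiment was how ischemic brain tissue differs with and without added lactate. RNA of the tissue was read as full-length cDNA by nanopore sequencing, with 6815920 to 10677224 counted reads per mouse, so that 3 counts, taken here as the floor of detection, correspond to 0.281 to 0.440 counts scaled to the library total (CPM). Vehicle mouse 1 stood apart from the other 11 mice on the second principal component over genes, at -57.2 against -7.04 to 16.4 in the others, and the calls are also given without it.

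Microglia are the resident macrophages of the brain. In the undisturbed brain they carry surface receptors that sense nucleotides (P2ry12), the neuronal chemokine Cx3cl1 (Cx3cr1) and lipids (Gpr34, Trem2), and they depend on Csf1r, the receptor of Csf1 and Il34. Trem2 and Siglech lack a signaling tail of their own and pass their signal through the adaptor Tyrobp (DAP12). Sall1 is a transcription factor of microglial identity, Tmem119 is a surface protein used as a microglial marker, and Aif1 encodes Iba1, a cytoplasmic calcium-binding protein stained in most work on microglia. Microglia that react to injury are known to lose some of these transcripts and to keep or gain others. Csf1r, Cx3cr1, Trem2, Tyrobp and Aif1 are also made by other macrophages and by monocytes.

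The 10 genes lie on 8 chromosomes of GRCm38, all as protein-coding genes of GENCODE. P2ry12 lies at chr3:59216272-59262871 on the minus strand, inside Med12l on the opposite strand. Cx3cr1 lies at chr9:119901616-120069879 on the minus strand, and this annotated span also covers Csrnp1, Gorasp1 and Xirp1 on the same strand. On the opposite strand it overlaps Wdr48 and Ttc21a, and noncoding genes that were not in the table. Gpr34 lies at chrX:13632089-13640858 within Cask on the opposite strand. The remaining positions are those of Tmem119 (chr5:113793729-113800516), Sall1 (chr8:89027235-89044162), Trem2 (chr17:48346401-48354147), Tyrobp (chr7:30413760-30417585), Siglech (chr7:55768178-55778925) and Aif1 (chr17:35170991-35176068), for which no overlapping gene was found. How the authors assigned reads to overlapping genes, and whether strand was used, is not given in the sources used here.

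Of the 10 genes, 6 had RefSeq promoter windows, 8 windows in all because Sall1 had 3. PU.1, encoded by Spi1, is the lineage factor of microglia and binds ETS-type sites with the core GGAA. Stretches of 30 bases around the GGAA or TTCC nearest the start site are shown for P2ry12 and Cx3cr1, which fell in the comparisons that follow, and for Trem2, which was not called in any, with every GGAA or TTCC inside the stretch in capitals (RefSeq, GRCm38.p6, each read 5′ to 3′ on the strand of its gene).
P2ry12, chr3:59262999-59263028: cccagtgacacatTTCCttttttttagggc
Cx3cr1, chr9:120068326-120068355: agggtaccacacaGGAAaccagatgctatt
Trem2, chr17:48346348-48346377: aagcctcctTTCCTTCCtccctccctcacg
In the 250 bases before the start site, GGAA (both strands counted) was found 4 times for P2ry12, 2 times for Cx3cr1 and 4 times for Trem2. These letters are common, since 93.4% of 32851 windows of the same length held at least 1 and the median window held 3. The longer string GAGGAAGT, which contains GGAA, was in 0 of the 8 windows on either strand and in 2.44% of all windows. The short motif was thus present both in genes that fell and in a gene that was not called.

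P2ry12 and Cx3cr1 were the 2 homeostatic genes that fell after ischemia with vehicle. With lactate, P2ry12 and Gpr34 fell and Tyrobp rose against sham. Between the lactate and vehicle groups 0 of 9 tested genes were called. The groups were compared with the quasi-likelihood test of edgeR, and a gene was called at an adjusted p under 0.05 (Benjamini-Hochberg over all genes tested in the comparison). Both comparisons with sham use the same 4 sham mice, so they are not independent of each other. In RNA of whole tissue, fewer cells of a type and less RNA per cell cannot be told apart.

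**Figure D1:**
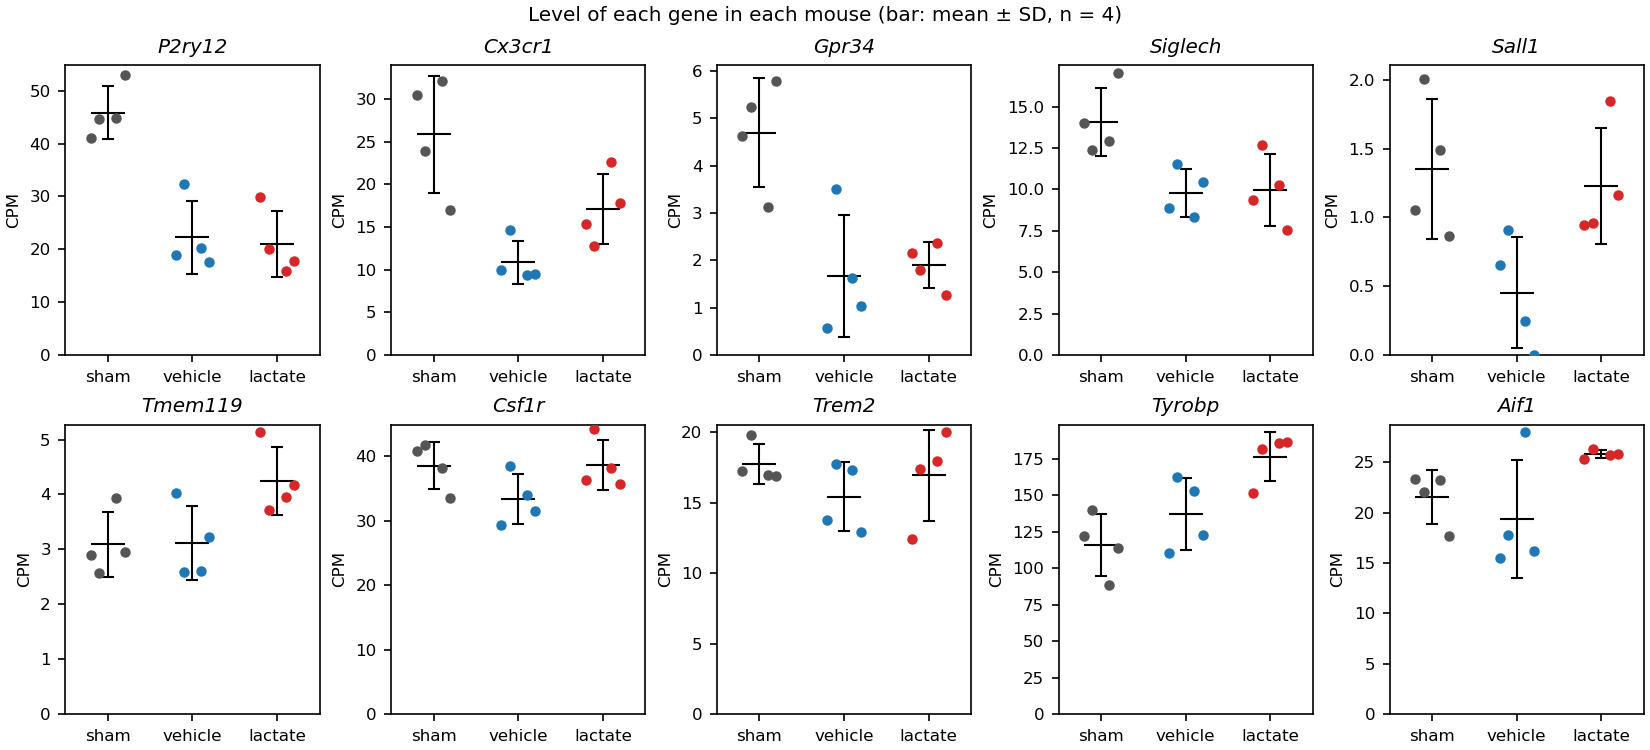
Level of each of the 10 genes in CPM (y axis) in every mouse of the sham, vehicle and lactate groups, with the mean and SD of 4 mice as bars. The P2ry12 values of the 4 sham mice, from 41.0 to 52.9, sit above all 8 ischemic mice, while Csf1r and Trem2 overlap between all groups.

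In the comparison of vehicle with sham, 2 of the 9 genes tested were called lower and 0 higher, beside 0.182% of 17019 tested genes called lower and 1.29% called higher. The groups did not overlap for 3 genes, all lower in ischemia (P2ry12, Cx3cr1 and Siglech), beside 4.89% of all genes tested that were lower and 4.14% that were higher without overlap. At an unadjusted p under 0.05 and at least a 1.5-fold change, 3 genes were lower (P2ry12, Cx3cr1 and Gpr34), beside 3.01% of all genes tested. The median log2 fold change of the 9 genes was -0.18, beside 0.0031 over all genes. When a mouse was left out, P2ry12 and Cx3cr1 were both called without vehicle mouse 1, they and Gpr34 without vehicle mouse 2, Cx3cr1 alone without sham mouse 4, and 0 genes without any of the other 5 mice.

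In the comparison of lactate with sham, 2 of 10 genes were called lower and 1 higher, beside 3.55% of 17262 tested genes called lower and 8.76% called higher. The groups did not overlap for 2 genes that were lower (P2ry12 and Gpr34) and 2 that were higher (Tyrobp and Aif1), beside 8.74% and 10.4% of all genes tested. The median log2 fold change of the 10 genes was -0.08, beside -0.03 over all genes. All 3 calls held in each of the 8 fits that left out 1 mouse.

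In the comparison of lactate with vehicle, 0 of 9 genes were called by edgeR, beside 0.00574% of 17419 tested genes. The edgeR exact test, DESeq2 and limma voom also called 0 of the 9, beside 0.258%, 0.350% and 0.0115% of all genes tested. At an unadjusted p under 0.05, 2 genes passed (Cx3cr1 and Tyrobp, both higher with lactate), beside 8.84% of all genes tested, and of these Cx3cr1 was also at least 1.5-fold higher, beside 3.76%. The groups overlapped for each of the 9 genes tested, beside 4.81% of all genes whose groups did not overlap. The median log2 fold change of the 9 genes was 0.19, beside -0.03 over all genes.

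**Figure D2:**
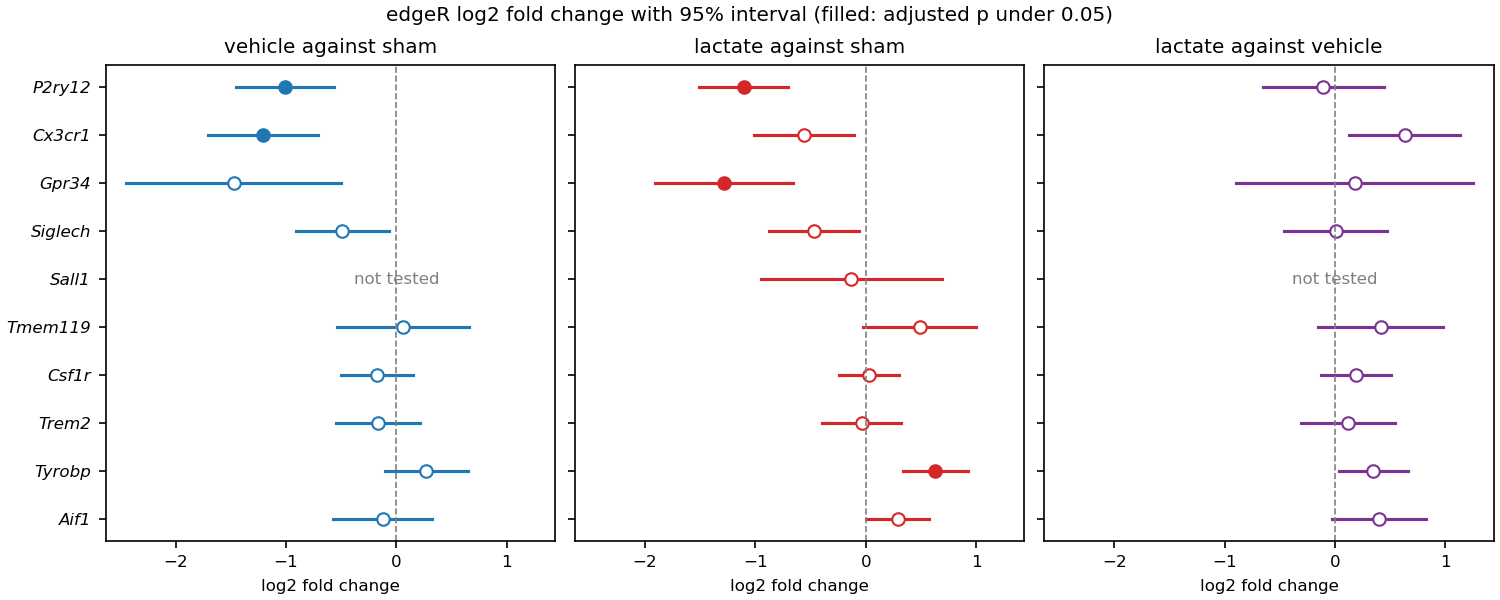
edgeR log2 fold change of each gene (x axis) with its 95% interval in the 3 comparisons, filled where the adjusted p was under 0.05. P2ry12 lies at -1.01 and -1.10 against sham, Tyrobp lies at 0.63 for lactate against sham, and every interval for lactate against vehicle other than those of Cx3cr1 and Tyrobp includes 0.

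Among the surface receptors, P2ry12, the ADP receptor with which microglia steer their processes toward injured cells, fell in both ischemic groups. Its level was 41.0, 44.6, 44.8 and 52.9 CPM in the sham mice, 18.8, 32.4, 20.2 and 17.6 CPM in the vehicle mice, and 29.9, 20.1, 15.8 and 17.9 CPM in the lactate mice. The lowest sham mouse was thus above the highest ischemic mouse, and the ranges of the ischemic groups overlapped almost fully. P2ry12 was 2.01-fold lower with vehicle than in sham (log2 fold change -1.01, SE 0.20, edgeR adjusted p = 0.0275). With lactate it was 2.15-fold lower than in sham (log2 fold change -1.10, SE 0.19, edgeR adjusted p = 0.00265). Lactate and vehicle differed by -0.11 on the log2 scale, with a 95% interval from -0.66 to 0.44 (edgeR adjusted p = 0.927).

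The call of P2ry12 in vehicle against sham depended on single mice. The edgeR adjusted p was 0.0577, 0.0887, 0.0878 and 0.112 without sham mouse 1, 2, 3 and 4 in turn. It was 0.0414 and 0.0045 without vehicle mouse 1 and 2, and 0.109 and 0.0712 without vehicle mouse 3 and 4. The log2 fold change stayed between -1.24 and -0.91 in these 8 fits, each of which has 7 mice. Med12l, whose span holds P2ry12 on the opposite strand, was at 13.03 ± 2.22 CPM in sham, 8.24 ± 1.54 CPM with vehicle and 11.9 ± 2.87 CPM with lactate (mean ± SD, n = 4), and was not called in any comparison. Its part in the P2ry12 counts was not tested.

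Gpr34, a receptor for lysophosphatidylserine and a relative of P2ry12, was low in all groups. The sham mice had 4.62, 5.24, 3.12 and 5.80 CPM, the vehicle mice 0.562, 3.50, 1.62 and 1.03 CPM, and the lactate mice 2.16, 1.80, 2.37 and 1.28 CPM, which correspond to 6 to 47 counts per mouse. The 4 lactate mice lay below the 4 sham mice, and vehicle mouse 2 overlapped the sham range. Gpr34 was 2.43-fold lower with lactate than in sham (log2 fold change -1.28, SE 0.29, edgeR adjusted p = 0.0125). With all 12 mice in a single model it was not called (edgeR adjusted p = 0.0673). With vehicle the log2 difference to sham was -1.47 with an SE of 0.45, which was not called (edgeR adjusted p = 0.165, and 0.0366 without vehicle mouse 2). Lactate and vehicle differed by 0.18 on the log2 scale, with an interval from -0.90 to 1.25 (edgeR adjusted p = 0.940), which holds differences of either sign.

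Cx3cr1, the receptor of the neuronal chemokine Cx3cl1, fell with vehicle. Its level was 30.5, 23.9, 32.1 and 17.0 CPM in the sham mice, 9.93, 14.6, 9.34 and 9.54 CPM in the vehicle mice, and 15.3, 12.8, 22.5 and 17.7 CPM in the lactate mice. All vehicle mice lay below all sham mice, and the lactate mice overlapped both groups. Cx3cr1 was 2.31-fold lower with vehicle than in sham (log2 fold change -1.21, SE 0.23, edgeR adjusted p = 0.0201). With lactate it was at -0.56 against sham (SE 0.21), which did not pass (edgeR adjusted p = 0.102), and it passed when sham mouse 4 was left out (adjusted p = 0.0407). The difference between lactate and vehicle was 0.63 on the log2 scale, higher with lactate, with an interval from 0.13 to 1.13 (edgeR unadjusted p = 0.0177, adjusted p = 0.514).

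The call of Cx3cr1 in vehicle against sham also depended on single mice. The edgeR adjusted p was 0.0782, 0.0624, 0.0914 and 0.0131 without sham mouse 1, 2, 3 and 4, and 0.0332, 0.0164, 0.0800 and 0.0552 without vehicle mouse 1, 2, 3 and 4. The log2 fold change ranged from -1.38 to -1.09. Csrnp1, which shares the annotated span and strand of Cx3cr1, moved the other way, at 3.91 ± 2.08 CPM in sham, 13.8 ± 7.10 CPM with vehicle and 7.34 ± 2.75 CPM with lactate, and was higher with vehicle than in sham (log2 fold change 1.86, edgeR adjusted p = 0.0486). Wdr48, on the opposite strand of the span, was at 38.9 ± 6.10 CPM in sham, 34.4 ± 5.83 CPM with vehicle and 32.8 ± 4.01 CPM with lactate. It was not called in any comparison. The part of Csrnp1 and Wdr48 in the Cx3cr1 counts was not tested.

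Csf1r (chr18:61100598-61132149, plus strand, overlapping Hmgxb3 on the other strand), the growth factor receptor that microglia need to survive, was close between the groups. It was at 40.7, 41.8, 38.2 and 33.5 CPM in the sham mice, at 29.4, 38.5, 34.0 and 31.5 CPM in the vehicle mice, and at 36.4, 44.2, 38.1 and 35.7 CPM in the lactate mice. All 3 groups overlapped. The log2 difference was -0.18 for vehicle against sham (95% interval -0.50 to 0.15, edgeR adjusted p = 0.663), 0.03 for lactate against sham (-0.24 to 0.30, adjusted p = 0.908) and 0.19 for lactate against vehicle (-0.13 to 0.51, adjusted p = 0.733). The intervals against sham leave no room for the 2-fold decrease measured for P2ry12.

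Tyrobp, the adaptor that carries the signal of Trem2 and Siglech, rose with lactate. It was at 122, 139.6, 88.4 and 114 CPM in the sham mice, at 110.2, 162, 152 and 123 CPM in the vehicle mice, and at 151, 182, 186 and 186 CPM in the lactate mice. The 4 lactate mice lay above the 4 sham mice, and the vehicle mice overlapped both. Tyrobp was 1.55-fold higher with lactate than in sham (log2 fold change 0.63, SE 0.14, edgeR adjusted p = 0.00996). With vehicle the difference to sham was 0.27 (SE 0.17, edgeR adjusted p = 0.524), and between lactate and vehicle it was 0.35 (interval 0.03 to 0.66, unadjusted p = 0.0327, adjusted p = 0.536). The principal transcript of Tyrobp has 564 bases, the shortest of the 10 genes, and the authors removed short reads, so its level can be understated in all mice.

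Trem2, the lipid and apolipoprotein receptor that signals through Tyrobp, was not called in any comparison. It was at 17.3, 19.8, 17.0 and 16.9 CPM in the sham mice, 13.8, 17.7, 17.3 and 12.9 CPM in the vehicle mice, and 12.4, 17.4, 17.9 and 20.1 CPM in the lactate mice. All groups overlapped. The log2 difference was -0.17 for vehicle against sham (interval -0.55 to 0.21, edgeR adjusted p = 0.736), -0.04 for lactate against sham (-0.39 to 0.32, adjusted p = 0.915) and 0.12 for lactate against vehicle (-0.31 to 0.54, adjusted p = 0.890). Siglech, a receptor of the Siglec family that also couples to Tyrobp, was at 14.0, 12.4, 12.9 and 17.0 CPM in the sham mice, 8.90, 11.5, 8.34 and 10.4 CPM in the vehicle mice, and 9.33, 12.7, 10.3 and 7.54 CPM in the lactate mice. Every vehicle mouse was below every sham mouse, and lactate mouse 2 reached into the sham range. The log2 difference was -0.49 with vehicle (SE 0.19, unadjusted p = 0.0265, edgeR adjusted p = 0.290) and -0.47 with lactate (SE 0.19, adjusted p = 0.131), so neither passed, and lactate and vehicle differed by 0.0045 (interval -0.47 to 0.47, adjusted p = 0.998).

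The common markers Aif1 and Tmem119 were not called in any comparison. Aif1 was at 23.3, 22.1, 23.2 and 17.6 CPM in the sham mice, 15.5, 17.7, 28.0 and 16.1 CPM in the vehicle mice, and 25.3, 26.3, 25.7 and 25.9 CPM in the lactate mice. The lactate mice were close together and all above the sham mice, while vehicle mouse 3 was above every lactate mouse. The log2 difference of Aif1 was -0.12 for vehicle against sham (SE 0.21, edgeR adjusted p = 0.849), 0.29 for lactate against sham (SE 0.13, adjusted p = 0.175) and 0.40 for lactate against vehicle (interval -0.03 to 0.83, adjusted p = 0.585). Tmem119 was low, at 2.90, 2.56, 3.94 and 2.96 CPM in the sham mice, 4.03, 2.59, 2.61 and 3.23 CPM in the vehicle mice, and 5.14, 3.71, 3.96 and 4.17 CPM in the lactate mice, or 20 to 43 counts per mouse. The lowest lactate mouse lay below the highest sham mouse, and the vehicle and sham ranges were nearly the same. Its log2 difference was 0.06 with vehicle (SE 0.27, edgeR adjusted p = 0.954) and 0.49 with lactate (SE 0.24, adjusted p = 0.204) against sham, and 0.41 between lactate and vehicle (interval -0.16 to 0.98, adjusted p = 0.671).

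Sall1, the transcription factor among the 10, was near the floor of detection. Its counts were 8, 18, 11 and 7 in the sham mice, 7, 7, 2 and 0 in the vehicle mice, and 7, 8, 14 and 10 in the lactate mice. Only vehicle mice had fewer than 7 counts, and the 0 counts of vehicle mouse 4 allow a level of up to 3 counts. Every lactate mouse, at 0.947 to 1.85 CPM, was above every vehicle mouse, at 0 to 0.907 CPM, beside 2.99% of all genes tested. Vehicle mice 1 and 2 and lactate mouse 1 each had 7 counts, so their CPM values differ only by the library total. Sall1 passed the filter of 1 CPM in at least 4 of 8 mice for lactate against sham alone, where the log2 difference was -0.13 (SE 0.38, edgeR adjusted p = 0.866). Without the filter it was at -1.47 for vehicle against sham (SE 0.60, edgeR adjusted p = 0.312) and at 1.31 for lactate against vehicle (SE 0.63, adjusted p = 0.624). Neither difference passed at this depth.

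Other genes of microglia were read from the same fits. Of 28 further microglial genes 25 were tested, and with vehicle 1 was called lower and 1 higher than in sham, beside 0.182% and 1.29% of all genes. P2ry13, a purinergic receptor encoded beside P2ry12 on chromosome 3, was at 4.22, 5.46, 4.75 and 3.95 CPM in the sham mice, 0.749, 1.04, 1.24 and 0.880 CPM in the vehicle mice, and 2.03, 2.40, 2.24 and 1.74 CPM in the lactate mice. The 3 groups were separate from each other, with vehicle lowest and lactate between. P2ry13 fell with vehicle (log2 fold change -2.19, SE 0.30, edgeR adjusted p = 0.00188) and with lactate (-1.10, SE 0.24, adjusted p = 0.0114), and the difference of 1.08 between lactate and vehicle did not pass (adjusted p = 0.481). The gene called higher with vehicle was C1qb, a subunit of the complement starter C1q, by 0.72 (SE 0.14, edgeR adjusted p = 0.0227), and it was called in only 1 of the 8 fits that left out a mouse, the one without vehicle mouse 1, where C1qc was called too.

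With lactate, 10 of these 25 genes were called higher and 2 lower than in sham, beside the 8.76% and 3.55% of all genes. The largest increases were those of C1qa (log2 fold change 1.40), Ly86 (1.27), C1qb (1.25), C1qc (1.05) and Fcrls (0.85). C1qa went from 37.9 ± 11.3 CPM in sham to 49.9 ± 15.0 CPM with vehicle and 98.8 ± 3.84 CPM with lactate. Fcrls, a microglial Fc receptor-like gene, went from 61.8 ± 4.89 to 72.0 ± 4.75 and 109 ± 19.8 CPM. The 2 genes that fell were P2ry13 and Lpcat2, a lysophospholipid acyltransferase (log2 fold change -0.87, called in 3 of 8 fits without a mouse). From 10 to 12 of the 25 genes were called when a mouse was left out. The median log2 fold change of the list was 0.54, beside -0.03 over all genes and -0.08 over the 10 homeostatic genes. Against vehicle, 0 of 25 were called by edgeR, while 10 had an unadjusted p under 0.05, beside 8.84% of all genes, and 9 were higher with lactate in every mouse than in any vehicle mouse, C1qa, C1qb, C1qc, Fcrls and P2ry13 among them, beside 2.99% of all genes tested.

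**Figure D3:**
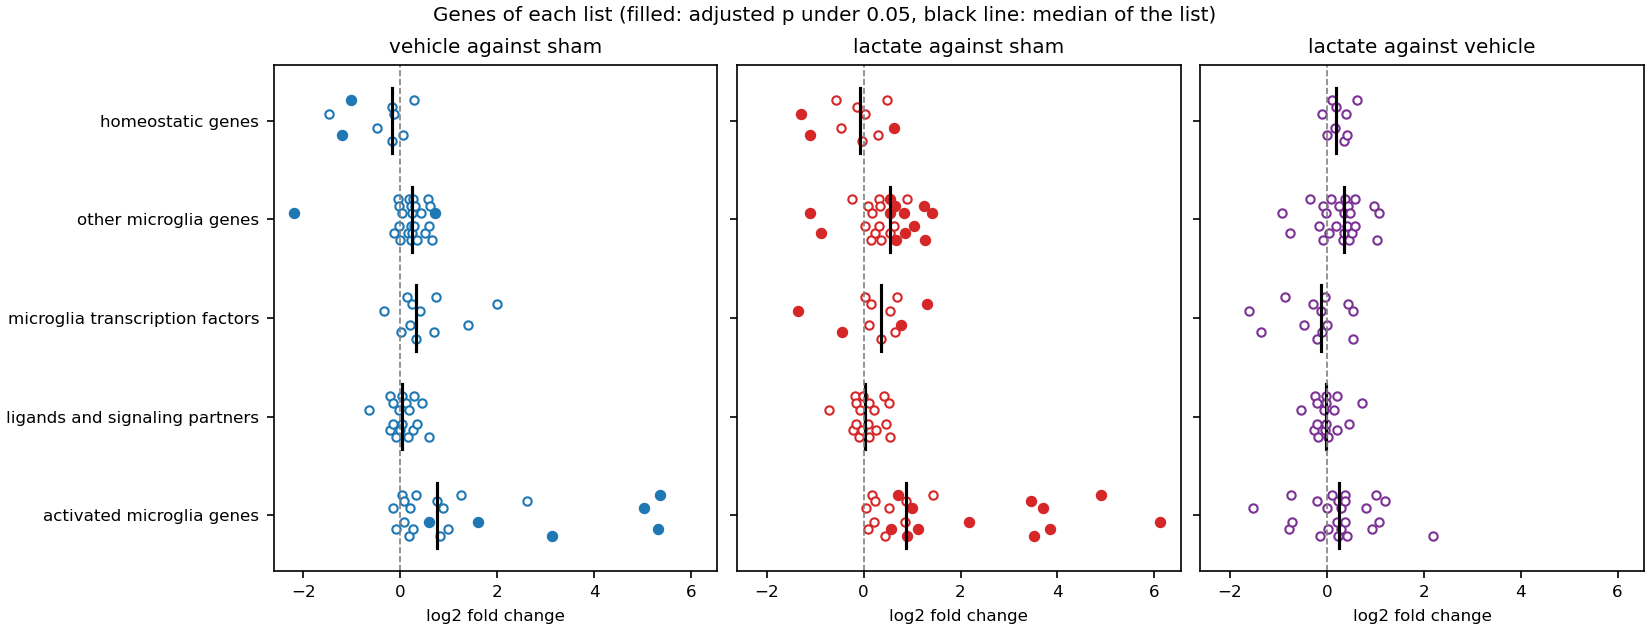
edgeR log2 fold change (x axis) of each tested gene in 5 lists for the 3 comparisons, filled where the adjusted p was under 0.05, with the median of each list as a black line. For lactate against sham the median is -0.08 for the 10 homeostatic genes and 0.54 for the other microglia genes, while the list of activated microglia holds genes that passed the filter through the ischemic mice, so its median is not set beside these.

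Of 30 genes of activated microglia 21 were tested with vehicle, and 6 were called higher than in sham and 0 lower, beside the 1.29% of all genes called higher. They were the chemokine gene Ccl2, the inhibitory receptor gene Lilrb4a, the stress factor genes Atf3 and Gadd45b, Ch25h and Cd63. Cd63 was at 193 ± 11.7 CPM in sham, and which cells of the tissue made the transcripts of this list was not tested. Ccl2, Ch25h and Lilrb4a reached 1 CPM in 0 of 4 sham mice and Atf3 in 1, so these 4 passed the filter through the vehicle mice and could only be higher there. The count of 6 is therefore not comparable with the share over all genes. Lilrb4a had 0 to 1 counts per sham mouse and 1.17 to 2.99 CPM with vehicle. When a mouse was left out the number was 1 to 6, and the genes changed. Ccl2, Ch25h and Lilrb4a were called in the 4 fits without a sham mouse and could not be tested without a vehicle mouse, since they then reach 1 CPM in only 3 mice. Atf3 was called in 5 of 8 fits, Gadd45b in 2 (without vehicle mouse 1 or 4) and Cd63 in 1 (without vehicle mouse 1). Without vehicle mouse 1 the 6 called genes were Atf3, Gadd45b, Cd63, Cd68, Ctsd and Spp1, and the number was lowest without vehicle mouse 3, at 1 (Atf3). With lactate, 12 of 22 were higher and 0 lower, beside 8.76% and 3.55% of all genes, and the number was 8 without lactate mouse 2 or 3, 9 without lactate mouse 1 and 11 without any other mouse. Of the 12, Ccl2, Ch25h and Lilrb4a reached 1 CPM in 0 sham mice and Lgals3 and Atf3 in 1, so this count too is not comparable with that share. Atf3 was called in 1 of the 4 fits in which it was tested, the one without lactate mouse 4. The 5 with the largest fitted change were Lilrb4a, Ccl2, Atf3, Lgals3 and Ch25h, the genes that reached 1 CPM in at most 1 sham mouse. With lactate Lilrb4a was at 2.30 to 4.07 CPM, Ccl2 at 1.22 to 3.96 CPM and Lgals3 at 6.90 to 15.8 CPM. Of the genes with at least 1 CPM in all sham mice, the largest increases were those of the chemokine gene Ccl12 (log2 fold change 3.46), Spp1 (osteopontin, 22.0 ± 3.21 CPM in sham and 97.8 ± 11.8 CPM with lactate, 2.18), Lyz2 (1.12) and Cd68 (0.99), which were singled out after their values had been seen. Between lactate and vehicle 0 of 24 were called by edgeR, 6 had an unadjusted p under 0.05, beside 8.84% of all genes, and Ccl12 came nearest (2.19, adjusted p = 0.0978).

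The ligands and partners of the 10 genes did not pass in any comparison, with 0 of 18, 0 of 18 and 0 of 17 tested genes called by edgeR for vehicle against sham, lactate against sham and lactate against vehicle. All genes were called at 1.29% higher and 0.182% lower, at 8.76% and 3.55%, and at 0.00574% in either direction, so a count of 0 among 17 or 18 genes is near the background in the first and the last of these comparisons. At an unadjusted p under 0.05 there were 0, 1 and 1, beside 13.8%, 27.1% and 8.84% of all genes. Cx3cl1, the ligand of Cx3cr1, was at 93.5 ± 8.28 CPM in sham, 98.5 ± 13.8 CPM with vehicle and 82.6 ± 10.4 CPM with lactate. Il34, a ligand of Csf1r made by neurons, was at 107 ± 10.9, 98.4 ± 20.2 and 98.4 ± 6.56 CPM. Apoe, which binds Trem2, differed by 0.16 with vehicle and by -0.04 with lactate from sham on the log2 scale.

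Of 15 transcription factors of microglia 11 were tested against sham. With vehicle 0 were called by edgeR, beside 1.29% of all genes called higher and 0.182% lower, although 2 were called without vehicle mouse 1 (Jun and Mef2c) and 2 had an unadjusted p under 0.05, beside 13.8% of all genes. With lactate Cebpa (log2 fold change 1.32) and Smad3 (0.77) rose, and Egr1 (-1.35) and Mef2c (-0.44) fell, beside 8.76% of all genes called higher and 3.55% lower. Without sham mouse 2 all 4 were called. Without sham mouse 3 or lactate mouse 3 or 4 the number was 3, and without any other mouse of these groups it was 2. Egr1 and Mef2c are also strongly expressed by neurons. Spi1, which encodes PU.1, was at 1.02 CPM in sham, 1.59 CPM with vehicle and 1.59 CPM with lactate on average and was not called. Against vehicle, 0 of 13 were called by edgeR, beside 0.00574% of all genes, and 2 had an unadjusted p under 0.05, beside 8.84%.

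To compare the genes with each other within a mouse, each was divided by the Csf1r level of the same mouse, and the ratio was read on the log2 scale as a description, with no test. With vehicle the ratio was lower than in sham without overlap for 2 of 8 genes, P2ry12 (log2 difference -0.87) and Cx3cr1 (-1.02), beside 1.13% of all genes tested. With lactate it was lower for 3 of 9, P2ry12 (-1.17), Siglech (-0.51) and Gpr34 (-1.31), beside 5.56%. Sall1 was left out with vehicle because 1 mouse had no count.

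The log2 ratio of P2ry12 was 0.0093, 0.093, 0.23 and 0.66 in the sham mice, -0.64, -0.25, -0.75 and -0.84 in the vehicle mice, and -1.27 to -0.28 in the lactate mice. Every sham mouse thus had more P2ry12 counts than Csf1r counts, and every ischemic mouse had fewer. The log2 ratio of Tyrobp was 1.21 to 1.76 in the sham mice, 1.91 to 2.17 in the vehicle mice and 2.04 to 2.38 in the lactate mice. It was the 1 gene with a higher ratio without overlap in both ischemic groups, beside 7.49% of all genes with vehicle and 9.64% with lactate. Between lactate and vehicle 0 of 8 ratios were apart, beside 7.19% of all genes tested.

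Within a group the 10 genes did not move as a block from mouse to mouse. Deviations of log2(CPM + 1) from the group mean, over all 12 mice, gave a median Pearson r of 0.16 over 45 pairs of genes, of which 29 were positive and 6 were above 0.5. The highest r was that of Tyrobp with its partner Trem2 (0.75), followed by Gpr34 with Tyrobp (0.69) and Gpr34 with P2ry12 (0.62). The lowest was that of Tyrobp with Tmem119 (-0.95). P2ry12 and Cx3cr1, the pair that fell with vehicle, had an r of -0.06. These values describe 12 mice, and all genes of a mouse share its library and depth. Among 9573 genes with a mean of at least 5 CPM, those most like P2ry12 in this measure were Necab3 (0.87), Prdx5 (0.85) and Ndufs4 (0.85). Those most like Cx3cr1 were Cep250 (0.93), Trpm2 (0.90) and Pex19 (0.89), those most like Gpr34 were Trpc7 (0.94), Crem (0.92) and Mrpl20 (0.89), and those most like Tyrobp were Rab13 (0.93), Ctsh (0.92) and Emp1 (0.90). These are the highest values picked from 9573 genes over 12 mice, and how high chance alone would reach was not measured. None of these genes is in the lists used here.

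Genes of other cells that share transcripts with microglia were read beside these results. The summed level of 11 border macrophage genes was 12.4 to 15.3 CPM in sham, 15.3 to 21.2 CPM with vehicle and 18.0 to 26.0 CPM with lactate, and 0 of 7 tested genes were called in any comparison, with 2 at an unadjusted p under 0.05 in each comparison with sham, beside 13.8% of all genes with vehicle and 27.1% with lactate. Without sham mouse 1, Clec4n was called higher with lactate. The sum of 10 monocyte genes was 12.6 to 16.8, 16.1 to 20.2 and 12.7 to 22.7 CPM, with 0 of 4 called against sham (S100a4 with lactate without lactate mouse 1), and Chil3 was at 0 in all sham mice. Itga4 was on average the largest part of this sum, at 9.55, 8.54 and 6.98 CPM, so the sum does not show how the other genes moved. Of the 4 tested genes, 2 had a positive and 2 a negative log2 fold change with vehicle, and 3 and 1 with lactate. Ccr2, which defines classical monocytes, was at 0 to 0.951 CPM in sham, 0 to 1.59 CPM with vehicle and 0.135 to 3.25 CPM with lactate. The sum of 11 neutrophil genes was 3.34 to 7.91 CPM in sham, 12.9 to 78.4 CPM with vehicle and 21.3 to 45.0 CPM with lactate. S100a8 and S100a9 were called higher in both ischemic groups (S100a9 with vehicle in 5 of 8 fits without a mouse) and Retnlg with lactate, while Ltf was at 0 in both ischemic groups and Mmp8, Camp, Ltf and Ly6g were at 0 in sham. Other members of the list did not rise alike. Csf3r was at 1.73 CPM in sham, 0.858 CPM with vehicle and 1.59 CPM with lactate on average. Cxcr2 was at 2.66, 3.39 and 2.14 CPM on average. Of the tested genes, 3 of 4 had a positive log2 fold change with vehicle and 3 of 5 with lactate. Retnlg reached 1 CPM in 0 sham mice and S100a9 in 1, so both passed the filter through the ischemic mice and could only be higher there. Retnlg was called in the 4 fits without a sham mouse and could not be tested without a lactate mouse. The part of these cells in the results for Tyrobp, Csf1r, Cx3cr1, Trem2 and Aif1 was not tested.

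Of 9 neuronal genes 0 were called by edgeR in any comparison, and 0 had an unadjusted p under 0.05. The counts for these cell types stand beside 1.29% of all genes called higher and 0.182% lower with vehicle, 8.76% and 3.55% with lactate, and 0.00574% between lactate and vehicle. Of 7 astrocyte genes Gfap was called higher with vehicle (log2 fold change 1.64, in 5 of 8 fits without a mouse) and with lactate (2.47), and Gjb6 with lactate (0.91) and, without vehicle mouse 1, also with vehicle. With lactate Mog of 6 oligodendrocyte genes fell (-0.60), as did Slco1a4 of 6 endothelial genes (-1.70, and with vehicle only without vehicle mouse 2), while Ly6c1 rose (0.86). Of the 6 endothelial genes 4 had an unadjusted p under 0.05 with vehicle, beside 13.8% of all genes, and 2 with lactate, beside 27.1%. Of 5 red blood cell genes 4 fell with lactate, by 0.42 to 0.61 on the log2 scale (2 without sham mouse 1 or lactate mouse 4 and 1 without lactate mouse 3), and 0 were called with vehicle by edgeR, where 4 had an unadjusted p under 0.05, beside 13.8% of all genes.

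**Figure D4:**
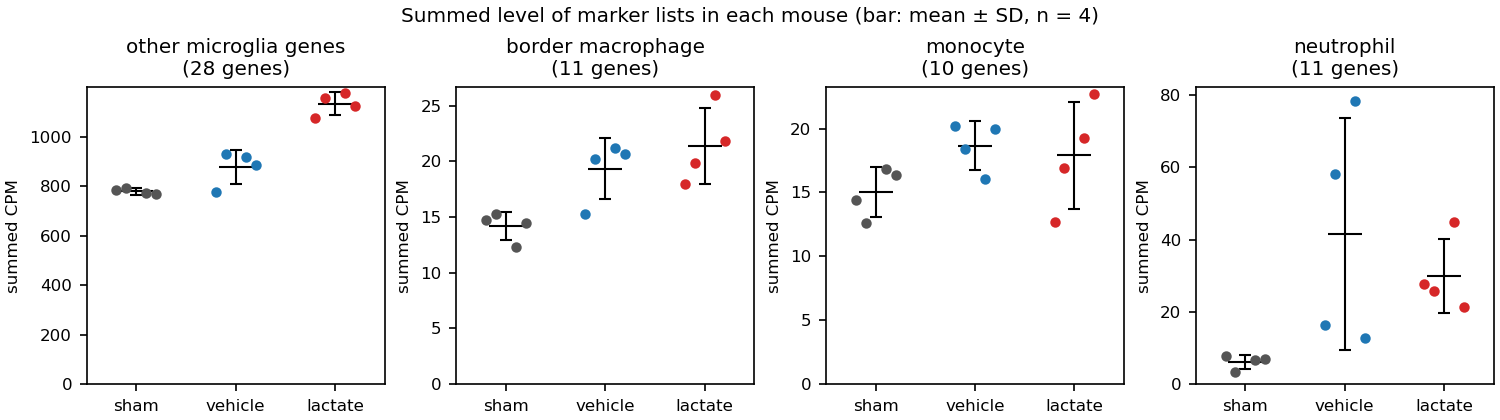
Summed CPM (y axis) of marker lists in every mouse of the 3 groups, with the mean and SD of 4 mice. The neutrophil sum is at most 7.91 CPM in the sham mice and at least 12.9 CPM in the ischemic mice.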

How the data were processed

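Brain RNA of 12 mice was analysed, 4 sham, 4 ischemic with vehicle and 4 ischemic with lactate, grouped by the sample titles. The authors made the deposited counts by removing short, low-quality and ribosomal reads, aligning full-length reads by minimap2, correcting isoforms by pinfish and naming them by gffcompare, without normalization. The authors' CPM values are these counts over the library total. The submitters' processing notes name GRCm38 and DESeq 1.10.1. The counting tool and annotation are not given in the sources used here. Columns of the authors' own comparisons (p-values and fold changes) were not used. Of 31212 lines, 4 held no gene and were left out, and 0 per-sample columns were left out. Positions are those of GENCODE mouse release 21.

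The main test was the quasi-likelihood test of edgeR 4.0.16 (R 4.3.3) with TMM factors. Each fit held the 8 mice of a pair of groups, and genes that reached 1 CPM in 4 or more of them were kept. Benjamini-Hochberg adjustment was over all genes tested. Fold changes are on the log2 scale of the fit, and their intervals are 95% intervals. Each replicate pair differed beyond sampling noise. The test was tested on simulated data. Alternatives were DESeq2 1.42.0, the edgeR exact test, limma 3.58.1 (voom with quality weights), other size factors and filters, all 12 mice in one fit, genes with an Ensembl identifier, an unadjusted p under 0.05 with at least a 1.5-fold change, the mouse number as a block, and leaving out each mouse. The ratio to Csf1r was added after the data had been seen, as was the search for GGAA. A planned ratio to a sum of other microglial genes and the level of 1 monocyte gene are not reported here. Python 3.11.15 and pandas 2.3.3 were used for levels, ratios (log2) and figures.

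All 10 genes were named in each comparison. From the lists (other microglia genes, transcription factors, ligands and partners, activated microglia, and markers of border macrophages, monocytes, neutrophils, neurons, astrocytes, oligodendrocytes, endothelial cells and red blood cells), called genes were named by size of change, up to 5 per list and direction. A sixth with vehicle (Cd63), 4 further activated microglia genes with lactate, and ligand and overlapping genes were named beside them, some after their values had been seen. The list of ligands and partners held 22 symbols, of which 21 were in the table. The other, Lrrc33, is an older name of Nrros, which is among the 21. The 10 genes and the lists were chosen with earlier results of these data known. Depth was 6815920 to 10677224 counts, and the floors do not cover PCR duplicates, which reads without molecular identifiers cannot show.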

Additional observations from a re-analysis of the deposited data

Results flagged for a closer look

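Of 30 groups of 4 mice (10 genes in 3 groups), 3 held a mouse far from the other 3 by Dixon's criterion, where chance alone gives about 1 in 20 groups. Cx3cr1 was highest in vehicle mouse 2, at 14.6 CPM with the next mouse at 9.93 CPM. Trem2 was highest in sham mouse 2, at 19.8 CPM with the next at 17.3 CPM. Tyrobp was lowest in lactate mouse 1, at 151 CPM with the next at 182 CPM.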

How the results depend on the processing

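Of 280 log2 fold changes of single genes under the alternatives that keep all mice, 269 kept their direction and their side of the threshold, 1 was no longer called (Gpr34 with lactate against sham when the 12 mice shared a fit, edgeR adjusted p = 0.0673), 1 was newly called (Gpr34 for vehicle against sham in the edgeR exact test, adjusted p = 0.0408) and 9 changed sign, each near 0 and not called. The 9 were, under limma voom, Tmem119 at -0.11 for vehicle against sham, Sall1 at 0.036 for lactate against sham and Siglech at -0.0575 for lactate against vehicle. With no filter Csf1r was at -0.0197 for lactate against sham and Siglech at -0.0215 for lactate against vehicle, with the filter of 0.5 CPM in 2 mice these were -0.0064 and -0.0168, and with only Ensembl genes Trem2 was at 0.0052 for lactate against sham. With the mouse number as a replicate block Siglech was at -0.0069 for lactate against vehicle. The block left 2, 3 and 0 of the homeostatic genes called, as without it. The mice of different groups are different animals, and the deviations of mice with the same number had correlations from -0.17 to 0.18, so the number does not pair them.

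When single mice were left out, the number called was 0 to 3 for vehicle against sham, 3 to 4 for lactate against sham and 0 for lactate against vehicle. Signs changed in 14 of 224 values, none of them called. The ranges were -0.10 to 0.19 for Tmem119 with vehicle, -0.38 to 0.15 for Sall1, -0.0322 to 0.0865 for Csf1r and -0.12 to 0.0847 for Trem2 with lactate against sham, and -0.33 to 0.13 for P2ry12, -0.13 to 0.12 for Siglech and -0.14 to 0.83 for Gpr34 for lactate against vehicle. At an unadjusted p under 0.05 and at least a 1.5-fold change 1 gene (Cx3cr1) passed for lactate against vehicle. Sall1 could not be fitted in comparisons with vehicle under the filter. Sall1, Gpr34 and Tmem119 had the fewest counts, 0 to 47 per mouse.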
